A study of Mus musculus with 13 samples.

Results

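The genes that drive cells through the division cycle were examined in the cerebral meninges of newborn mice. The set, chosen by name with earlier results of these data known, is a list of 41 cyclins, cyclin-dependent kinases, replication factors and mitosis genes. Of these, 39 were measured among the 19938 genes tested. The probe set of Cdkn1a carries 2 gene symbols and was not used, and Ccnb1 is named only. RNA came from meninges of 13 pups of 1 litter (C57BL6, postnatal day 0), 1 pup per array. The 4 mutants were Pdgfc-/-; Pdgfra GFP/+, lacking the ligand PDGF-C and carrying 1 copy of its receptor gene replaced by a nuclear GFP reporter. The 9 controls were the remaining littermates, a pool in which some pups carried Pdgfra GFP/+ with at least 1 intact Pdgfc copy and others had no GFP allele and any Pdgfc genotype, Pdgfc-/- included. The labels do not say which control had which genotype. Both alleles act in the whole animal, and the dissected layer holds several cell types.

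Cells enter the cycle in G1, when D-type cyclins with Cdk4 or Cdk6, and then E-type cyclins with Cdk2, release E2F transcription factors from the retinoblastoma protein. Cdc6 and Cdt1 load the ring formed by Mcm2 to Mcm7, the core of the replicative helicase, onto replication origins before DNA synthesis begins. After S phase, Cdk1 with A- and B-type cyclins, the Aurora and Polo kinases and the spindle machinery carry the cell through mitosis. Many G1 and S phase genes have E2F sites in their promoters, and many mitotic genes carry CCAAT boxes with a cell cycle homology region (CHR), an element bound by the DREAM and MuvB complexes. The meninges around a newborn brain still grow, with dividing fibroblasts, endothelial cells and macrophages.

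Promoter sequence is shown for 7 of the genes, to let the elements of the 2 waves be seen beside the values. Windows reach from 250 bases before to 50 bases after the start of a gene (RefSeq, build GRCm38.p6), and 32 of the 39 genes had one. Both strands were searched for 3 motifs: CCAAT, the CHR core (TTTGAA or TTCGAA) and an E2F site (TTTCGCGC, TTTGGCGC or TTTCCCGC). The first 3 stretches belong to genes that fell in mutants, each with an E2F match in capitals. Mcm2 and Ccnd3, which also fell, had no E2F match. Outside the stretches shown lie CCAAT boxes of Cdk2, Mcm5, Cdk1 and Top2a, CHR cores of Top2a and an E2F match of Cdk1. Cdc6 (chr11:98907981-98908060, plus strand), Cdk2 (chr10:128705142-128705221, minus strand) and Mcm5 (chr8:75109339-75109418, plus strand) are shown from 170 to 91 bases before their starts.
Cdc6: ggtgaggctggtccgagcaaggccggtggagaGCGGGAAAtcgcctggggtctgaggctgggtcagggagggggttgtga
Cdk2: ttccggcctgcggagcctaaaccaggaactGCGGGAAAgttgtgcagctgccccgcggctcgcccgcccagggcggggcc
Mcm5: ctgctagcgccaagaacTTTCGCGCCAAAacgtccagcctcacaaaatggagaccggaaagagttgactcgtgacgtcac

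The capitals of Mcm5 are 2 E2F matches that overlap on opposite strands. The other 4 stretches belong to genes of mitosis that did not pass the test, shown over the 80 bases before the start, with CCAAT boxes and CHR cores in capitals: Cdk1 (chr10:69352913-69352992, minus strand), Cdc20 (chr4:118437344-118437423, minus strand), Kif11 (chr19:37376302-37376381, plus strand) and Top2a (chr11:99024190-99024269, minus strand).
Cdk1: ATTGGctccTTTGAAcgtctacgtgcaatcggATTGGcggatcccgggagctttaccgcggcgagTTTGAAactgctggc
Cdc20: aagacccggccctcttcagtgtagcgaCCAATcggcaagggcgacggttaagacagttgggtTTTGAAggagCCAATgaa
Kif11: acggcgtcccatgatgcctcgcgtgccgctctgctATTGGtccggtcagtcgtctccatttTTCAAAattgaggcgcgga
Top2a: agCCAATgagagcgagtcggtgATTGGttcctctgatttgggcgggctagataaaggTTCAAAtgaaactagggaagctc

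Values are array intensities on a linear scale, and differences are mutant minus control of log2(intensity + 16), tested with limma and called at an adjusted p under 0.05 over all genes tested. The check of the labels came first. Pdgfc measured 22.8 to 29.3 in mutants, against 5.88 in control 2 and 103 to 275 in the other controls, and fell by 1.84 on the log2 scale (adjusted p = 0.00772). Pdgfra, which encodes the receptor, fell by 0.71 (adjusted p = 0.0276). Array medians were 56.0 to 89.7 in mutants and 44.1 to 89.0 in controls, so each comparison was also made with arrays scaled to a common median. The 4 mutants and controls 1, 5 and 8 lacked Xist signal (2.24 to 8.73) and the other 6 controls had it (536 to 1020), so sex was not balanced between the groups. Markers of other cell types differed between the groups as well. All 12 neuron markers rose, with a summed intensity of 14000 to 17190 in mutants and 1482 to 4190 in controls. Of 12 endothelial markers 8 fell (6358 to 8364 in mutants, 8965 to 18580 in controls), as did 10 of 12 macrophage and microglia markers (4264 to 7361 in mutants, 8274 to 11520 in controls). Of 15 meningeal fibroblast markers 2 rose and 3 fell, and the summed intensity was 29560 to 43670 in mutants and 33540 to 46220 in controls. Of 12 neural progenitor markers Sox2 rose and Prom1 and Slc1a3 fell, and 3 of 8 oligodendrocyte precursor markers rose, while 0 of 10 mural and 0 of 6 erythroid markers were called, 2 and 0 of them with an unadjusted p under 0.05. Their part in the results below was not tested, and in bulk tissue fewer cells of a type and less RNA per cell cannot be told apart.

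Of the 39 cell cycle genes 8 fell in mutant meninges and 0 rose in limma, and 15 had an unadjusted p under 0.05. Among all genes tested 6.31% fell and 8.58% rose, and 23.6% had an unadjusted p under 0.05. The 8 were the cyclins Ccne2 and Ccnd3, the kinase Cdk2, the licensing factor Cdc6 and the helicase subunits Mcm2, Mcm3, Mcm4 and Mcm5. The 39 genes had a median difference of -0.20, against 0.0043 over all genes, and 32 of 39 were negative, while with arrays centred on 12 reference genes the median was 0.0098 and 17 were negative. That centring moves the difference of every gene by the same amount, and it took the median of all genes to 0.21. The distance of the cell cycle genes from that median, -0.20 under both scalings, is therefore fixed by arithmetic and adds no support. The 12 reference genes were not a still background: Gusb and Sdha among them fell, and Tfrc fell by 1.38. With arrays scaled to their medians, 8 of 39 again fell and 0 rose, where 8.34% of all genes fell and 7.01% rose. Ccne1 entered these 8 (-0.49, adjusted p = 0.0122) and Mcm4 left them (-0.60, adjusted p = 0.0707). Under quantile normalization 15 of 39 fell and 2 rose, Ccnd2 and Cdkn1b, where the shares of all genes were larger too, at 18.9% and 12.7%. Centred on reference genes 3 of 39 fell and 4 rose, where 3.81% of all genes fell and 20.4% rose. As deposited, no listed gene differed by as much as 2-fold on the log2 scale used here, which includes the added constant. The methods' t-test, with its 2-fold limit read on that scale, therefore called 0 of them. In that test 14 had a p under 0.05 (24.2% of all genes did) and 9 fell after Benjamini-Hochberg adjustment (6.13% of all genes). Without the constant, Ccne2 averaged 58.38 in mutants and 115.9 in controls as deposited, just under the limit. With arrays scaled to their medians, such means passed it for Ccne2 (58.7 and 126.9) and Mcm3 (160.8 and 344.7). The other listed genes stayed under it.

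**Figure D1:**
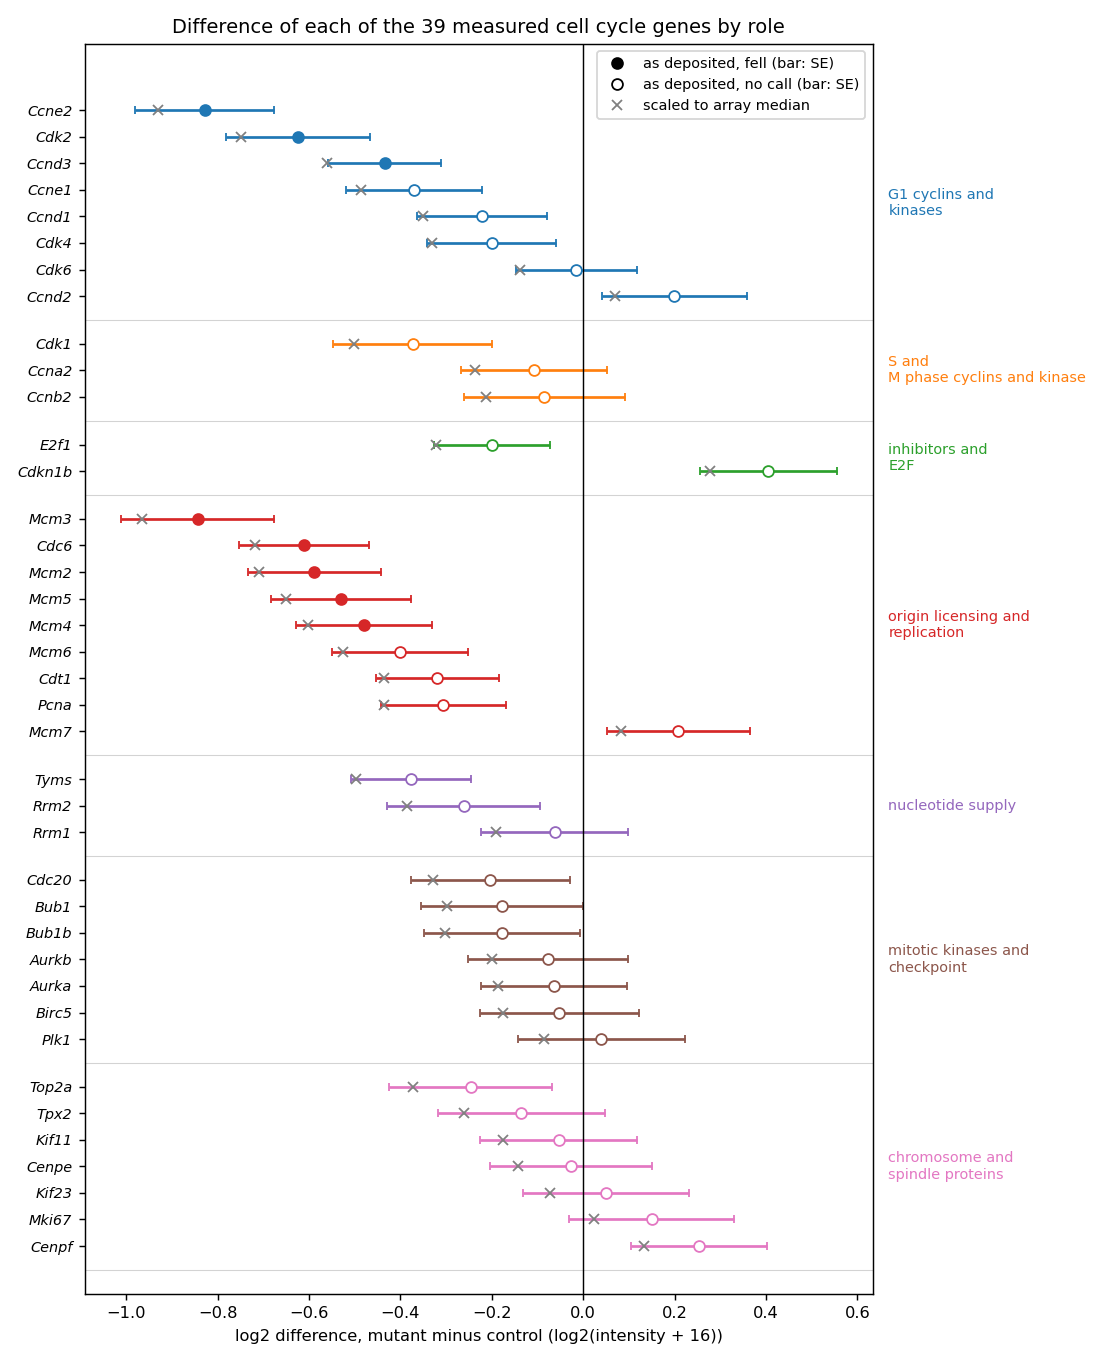
Difference of each of the 39 measured genes, mutant minus control, of log2(intensity + 16), in 7 groups by role, with the SE of the limma fit as bars, filled points for genes that fell and crosses for arrays scaled to their median. The 8 filled points are all among the G1 cyclins and kinases or the licensing and replication genes, while the mitotic genes below them lie between -0.37 and 0.25; centring on reference genes instead moves every point 0.21 to the right.

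Every mutant lay below every control for 3 of the 39 genes, Ccne2, Mcm3 and Cdc6, and above for 0. Over all genes tested the shares were 3.04% below and 6.4% above. With arrays scaled to their medians the genes without overlap were Ccne2, Mcm3 and Mcm5, again 3 below and 0 above, against 6.17% and 5.25% of all genes.

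The helicase gene Mcm3 had the largest difference of the set. Its intensity was 175, 196, 138 and 151 in mutants 1 to 4, against a lowest value of 237, a median of 313 and a highest of 467 in controls. The groups did not overlap, and the mutant nearest to the controls was mutant 2. Mcm3 averaged 165 ± 26.0 in mutants and 314 ± 76.2 in controls (SD, n = 4 and 9), and fell by 0.84 (SE 0.17, adjusted p = 0.00116 in limma). With the 13 mice split in all 715 ways, a two-sided exact permutation test gave p = 0.0014, the smallest it can give. In the 3 controls without Xist signal Mcm3 was at 237, 368 and 346. That these lie above all 4 mutants follows from the lack of overlap and adds nothing on the part of sex.

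Ccne2 encodes cyclin E2, which activates Cdk2 at the start of DNA synthesis. It was among the dimmer genes of the set, at 46.0, 78.9, 59.8 and 48.8 in mutants 1 to 4, against a lowest value of 94.7, a median of 108 and a highest of 160 in controls. No mutant reached the lowest control, and controls 5 and 6 stood highest. Ccne2 fell by 0.83 (SE 0.15, adjusted p = 5.51e-04, exact permutation p = 0.0014). The controls without Xist signal had 94.7, 149 and 119. Its partner kinase Cdk2 was at 218, 351, 234 and 284 in mutants, against 313 to 561 in controls with a median of 422. Only mutant 2 reached into the control range, above control 7. Cdk2 fell by 0.62 (SE 0.16, adjusted p = 0.00867, exact permutation p = 0.0028), a call lost without mutant 1, with unequal variances and when Xist was added as a covariate, where the difference was -0.53, -0.62 and -0.63.

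Cdc6 is the factor that, with the origin recognition complex, opens the way for helicase loading. Its intensity was 70.2, 55.3, 48.2 and 39.6 in mutants 1 to 4, against 71.1 to 107 in controls with a median of 84.2. The groups did not overlap, but mutant 1 lay just under control 4. Cdc6 fell by 0.61 (SE 0.14, adjusted p = 0.00454, exact permutation p = 0.0014). Cdt1, its partner in loading, had 98.2, 97.8, 66.8 and 89.7 in mutants, against 95.3 to 141 in controls with a median of 116. Mutants 1 and 2 were within the control range, and Cdt1 did not pass the test (-0.32, adjusted p = 0.136).

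Of the 6 helicase subunits 4 fell, with a median over the 6 of -0.50. Mcm2 had 190, 181, 147 and 149 in mutants, against 182 to 322 in controls with a median of 262. Only mutant 1 was above the lowest control, control 3, and Mcm2 fell by 0.59 (SE 0.14, adjusted p = 0.00735). Mcm5 had 161, 141, 116 and 135 in mutants, against 140 to 281 in controls with a median of 209. It fell by 0.53 (SE 0.15, adjusted p = 0.0228), and mutants 1 and 2 were above control 3. Mcm4 had 189, 252, 210 and 221 in mutants, against 224 to 398 in controls with a median of 324. Mutant 2 lay above controls 3 and 7, and Mcm4 fell by 0.48 (SE 0.15, adjusted p = 0.0336). Mcm6 lay at 281, 306, 265 and 232 in mutants, against 289 to 468 in controls, and did not pass the test (-0.40, adjusted p = 0.0819). Mcm7 was the 1 subunit with a positive difference, at 425, 525, 347 and 485 in mutants, against 283 to 506 in controls with a median of 416. The difference was 0.21 (SE 0.16, adjusted p = 0.551), and centred on reference genes it was called as a rise (0.42, adjusted p = 0.0202). The 6 proteins sit in 1 ring, and the probe sets of their genes gave differences from -0.84 to 0.21.

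The replication clamp Pcna was among the brighter genes of the set, at 1264, 1537, 1101 and 1297 in mutants, against 1310 to 1998 in controls. Its difference was -0.31 (adjusted p = 0.169), and a second probe set gave -0.30. The genes of nucleotide supply did not pass the test. Thymidylate synthase, Tyms, was nearest, at 149, 105, 97.8 and 126 in mutants, against 138 to 199 in controls (-0.38, adjusted p = 0.0608). Rrm2 and Rrm1, the subunits of ribonucleotide reductase, had differences of -0.26 and -0.06.

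**Figure D2:**
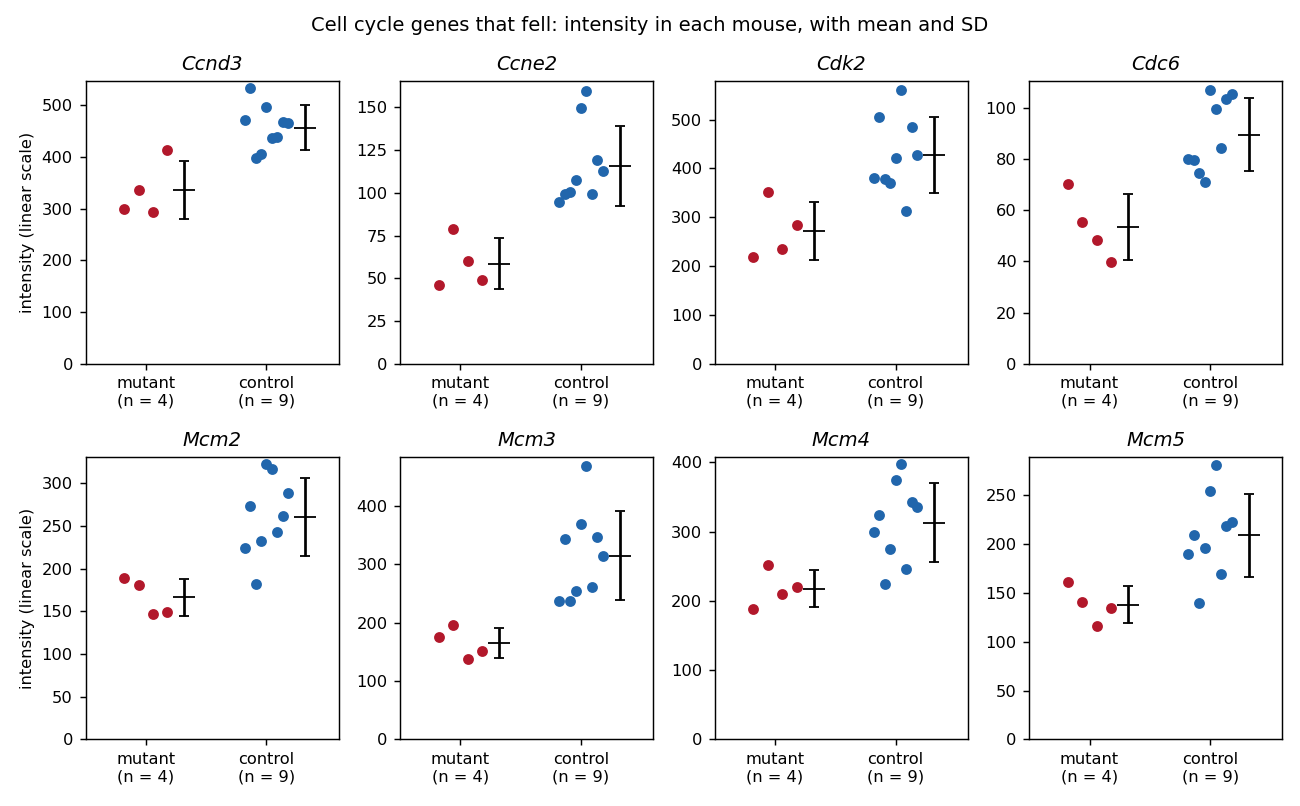
Intensity on a linear scale of the 8 genes that fell, 1 point per mouse, 4 mutants left and 9 controls right, with the mean and SD beside the points. Mutant and control points do not overlap for Ccne2, Cdc6 and Mcm3, and in the other 5 panels 1 or 2 mutants reach into the control range.

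The G1 cyclins and kinases were divided. Besides Ccne2 and Cdk2, Ccnd3 fell by 0.43 (SE 0.12, adjusted p = 0.0208). Ccnd3 had 299, 336, 294 and 415 in mutants, against 398 to 535 in controls with a median of 465, and only mutant 4 reached the control range. Ccne1 had 139, 117, 84.5 and 102 in mutants, against 112 to 198 in controls, a difference of -0.37 that did not pass (adjusted p = 0.116). The other D cyclins and their kinases did not pass either. Ccnd1 averaged 1019 ± 215 in mutants and 1178 ± 143 in controls, and Ccnd2, the brightest of the 39 by intensity, 7644 ± 1893 in mutants and 6567 ± 1006 in controls (SD, n = 4 and 9). Their differences were -0.22 and 0.20, and that of Ccnd2 was called as a rise under quantile normalization and centred on reference genes (0.26 and 0.41). Cdk4 and Cdk6, which bind the D cyclins, had differences of -0.20 and -0.01. The kinase inhibitor Cdkn1b, or p27, averaged 708 ± 119 in mutants and 533 ± 87.8 in controls (SD, n = 4 and 9), the largest positive difference of the set at 0.41 (adjusted p = 0.0808). A second probe set of Cdkn1b gave 0.38. The transcription factor E2f1 had a difference of -0.20 (adjusted p = 0.418).

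None of the 17 genes that act from S phase to the end of mitosis was called in limma (1, Cdk1, had an unadjusted p under 0.05, as did 23.6% of all genes), and their differences ran from -0.37 to 0.25 with a median of -0.08. The median was -0.20 with arrays scaled to their medians and 0.13 centred on reference genes. Mki67, which encodes the proliferation marker Ki-67, had 365, 310, 272 and 432 in mutants, against 208 to 417 in controls with a median of 323. All but 1 of the mutants lay inside the control range, and the difference was 0.15 (adjusted p = 0.818). Top2a, the topoisomerase that untangles sister chromosomes, had 393, 496, 358 and 583 in mutants, against 387 to 772 in controls, a difference of -0.25 (adjusted p = 0.524). A second probe set of Top2a, far dimmer with means of 4.08 in mutants and 2.87 in controls, gave 0.10. Cdk1, the kinase that starts mitosis, had the lowest difference of the 17, with 406, 490, 318 and 500 in mutants, against 430 to 788 in controls (-0.37, adjusted p = 0.194). Under quantile normalization Cdk1 was called as a fall (-0.40, adjusted p = 0.00958). Its cyclins Ccna2 and Ccnb2 had differences of -0.11 and -0.09. Among the mitotic kinases, Plk1, Aurka and Aurkb had 0.04, -0.06 and -0.08, and Birc5, the survivin subunit of the Aurora B complex, had -0.05. The checkpoint kinases Bub1 and Bub1b both had -0.18, and Cdc20, which activates the anaphase-promoting complex, had -0.20. The spindle motors Kif11 and Kif23 had -0.05 and 0.05, and Tpx2, which activates Aurora A on the spindle, had -0.14. The kinetochore proteins Cenpe and Cenpf had -0.03 and 0.25, and Cenpf was called as a rise centred on reference genes (0.46, adjusted p = 0.00648).

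The mitotic genes varied together from mouse to mouse. In the deposited values mutant 3, the mutant of lowest array median (56.0), was the lowest mutant for all 17, and mutant 4 was the highest for 15. Among controls the highest was control 2 for 9 genes and control 6 for 8, and the lowest was always control 1, 3 or 7 (6, 7 and 4 genes). Mean log2 levels of the 17 averaged 8.20 ± 0.28 in mutants and 8.27 ± 0.29 in controls (SD, n = 4 and 9), so the spread within each group was wider than the distance between the groups. Which mice were high or low depended on the scaling. With arrays scaled to their medians mutant 1 was the lowest mutant for 16 of the 17 and mutant 2 the highest for 15, and control 6, the array of lowest median (44.1), was the highest control for all 17.

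The 2 waves were also set against each other inside each array, which cancels only a shift that both share equally. How much of the difference between arrays it removed was not tested. The mean log2 level of the 9 licensing and replication genes minus that of the 17 later genes was -0.25, -0.37, -0.22 and -0.74 in mutants 1 to 4. In controls 2 and 4 it was -0.36 and -0.23, and in the other 7 controls it lay between -0.03 and 0.15. The means were -0.39 ± 0.24 in mutants and -0.04 ± 0.16 in controls (SD, n = 4 and 9). The groups overlapped through controls 2 and 4, and control 2 was also the control with the least Pdgfc. As the lists were drawn up with results of these arrays known, no test was made of this difference.

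**Figure D3:**
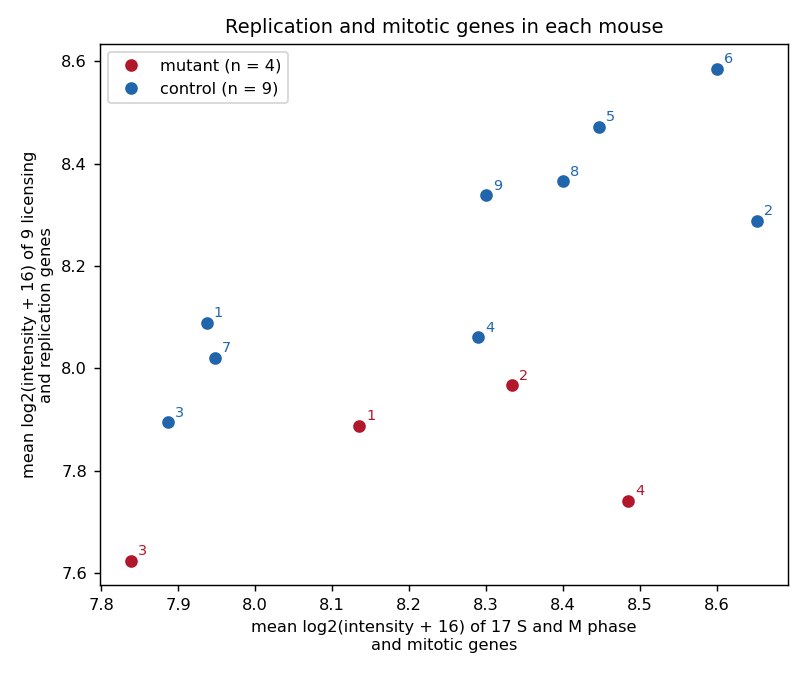
Mean log2(intensity + 16) of the 9 licensing and replication genes (vertical) against that of the 17 S and M phase and mitotic genes (horizontal) in each mouse, numbered by replicate, mutants in red and controls in blue. Mutants lie at 7.84 to 8.48 on the horizontal axis and controls at 7.89 to 8.65, and mutants lie lower on the vertical axis than controls at a like horizontal position.

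E2F and CHR matches differed in share between the roles, and CCAAT boxes were common in both. Of the 8 licensing and replication genes with a window, 6 (75.0%) had an E2F match, against 2.12% of the 27025 genes of the promoter table, 2 had a CHR core and 6 a CCAAT box. A CHR core was found in 12 of the 14 S and M phase and mitotic genes with a window (85.7%), against 21.7% of all genes, and a CCAAT box in 13 of 14 (92.9%), against 41.1%. An E2F match was found in 4 of the 6 genes that fell and had a window, Cdc6, Cdk2, Mcm3 and Mcm5, and in 4 of 26 with no call, Cdk1, Cdt1, Mcm6 and Mcm7. In Mcm7 an E2F match overlapped a CCAAT box. Mcm6 and Mcm7 carried E2F matches, as Mcm3 and Mcm5 did, and did not pass the test. Mcm2, which fell, had a CHR core and a CCAAT box but no E2F match, and Mcm4, which also fell, had no window. A match describes letters in a window and is no measure of binding.

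**Figure D4:**
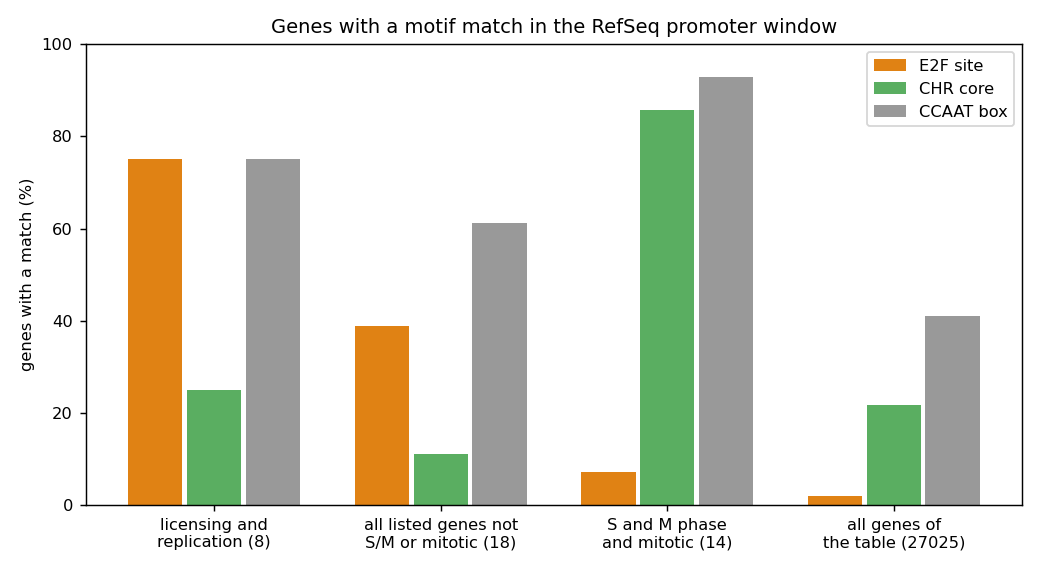
Share of genes (%) with at least 1 match of an E2F site, a CHR core or a CCAAT box in the RefSeq promoter window, for the 8 licensing and replication genes, the 18 listed genes that are not S and M phase or mitotic (the 8 among them), the 14 S and M phase and mitotic genes and all 27025 genes. E2F bars stand highest for licensing genes (75.0%) and CHR bars for mitotic genes (85.7%).

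Other genes of the cell cycle were read from 10 lists of 198 genes, of which 185 were measured. Here 8 fell and 3 rose, shares below those of all genes tested, and the median difference was -0.07 (0.14 centred on reference genes, where 30 rose and 4 fell, again smaller shares than the 20.4% and 3.81% of all genes). Chek1, the checkpoint kinase that restrains Cdk activity while DNA is copied, had 63.4, 118, 68.1 and 71.5 in mutants, against 107 to 180 in controls, and fell by 0.64 (adjusted p = 0.00928). Cdc25a, the phosphatase that activates Cdk2, fell by 0.46 (adjusted p = 0.0298). Pole2, a subunit of the leading-strand polymerase, fell by 0.53 (adjusted p = 0.0063), at 47.3 to 70.8 in mutants and 76.0 to 118 in controls. As deposited, every mutant lay below every control for 3 of the 185 genes (Pole2, Uhrf1 and Cdkn1c) and above for 2. The shares of all genes were 3.04% and 6.4%. With arrays scaled to their medians these 3 overlapped, and the counts were 4 and 1, against 6.17% and 5.25% of all genes. Hells and Uhrf1, which help to keep DNA methylation through replication, fell by 0.63 and 0.48, and Cdca7, a partner of Hells, fell by 0.54. E2f6, a repressor of the E2F family, fell by 0.49. With arrays scaled to their medians Cdc25a, Hells, Uhrf1 and Cdca7 lost the call, although their differences were larger (-0.58, -0.74, -0.60 and -0.66), since the SE was larger too (0.20 to 0.26, against 0.14 to 0.17 as deposited). Cdc45, Pold1, Shmt1 and Cenpm entered, so that 8 again fell.

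Cdkn1c, or p57, an inhibitor that holds cells out of the cycle, also fell, by 0.64 (adjusted p = 8.56e-04), at 1727, 2229, 1615 and 2132 in mutants, against 2583 to 3300 in controls. Its groups did not overlap as deposited, but did with arrays scaled to their medians. Of the 3 genes that rose, Mycn and Stmn1 are both known for strong expression in the developing nervous system. Mycn, a driver of progenitor growth, had 208, 221, 159 and 220 in mutants, against 29.7 to 83.4 in controls, and rose by 1.77 (adjusted p = 3.54e-06). Stmn1, which destabilises microtubules, had 3583 to 4892 in mutants and 1824 to 3322 in controls, and rose by 0.97 (adjusted p = 1.98e-04). The neuron markers whose sums are given above rose in the same arrays, and their part in these rises was not tested. Anapc5, a subunit of the anaphase-promoting complex, rose by 0.39 (adjusted p = 0.0473) and lost the call with arrays scaled to their medians.

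None of the 22 mitotic kinase, checkpoint and anaphase genes, the 20 kinetochore and centromere genes or the 29 spindle and cytokinesis genes fell in limma, where 1, 1 and 3 of them had an unadjusted p under 0.05, against 23.6% of all genes. With arrays scaled to their medians Cenpm, a centromere gene, fell (-0.38, adjusted p = 0.0328). Under quantile normalization 2 of the 22, 6 of the 20 and 0 of the 29 fell, against 18.9% of all genes. None of the 19 genes of origin recognition and firing, which act beside Cdc6 and the Mcm ring, fell either (3 with an unadjusted p under 0.05), and their median was -0.03. Among them Cdc45, a part of the active helicase, was called as a fall with arrays scaled to their medians (-0.53, adjusted p = 0.0109, every mutant below every control). Under quantile normalization 5 of the 19 fell, where 18.9% of all genes did. Of 32 replication fork and repair genes 3 fell in limma, where 6.31% of all genes did, and the median of the 32 was -0.15.

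**Figure D5:**
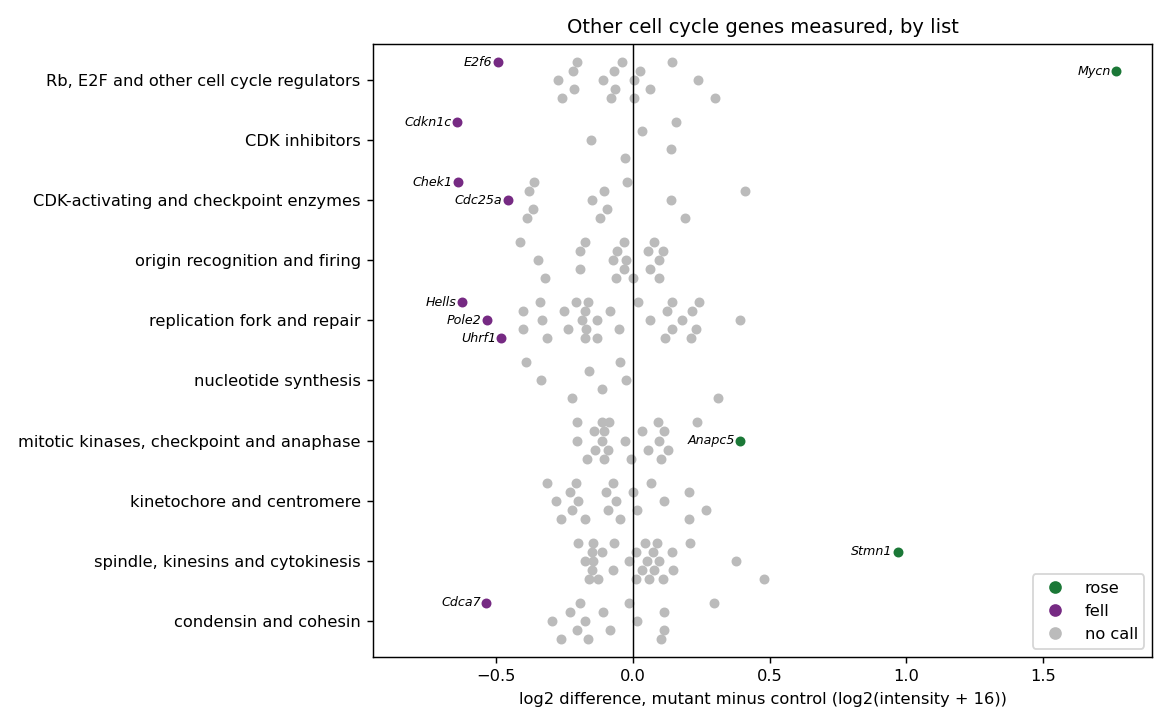
Difference, mutant minus control, of log2(intensity + 16) for the 185 other cell cycle genes in 10 lists, with genes that rose in green, genes that fell in purple and the rest in grey. Mycn and Stmn1 stand to the right at 1.77 and 0.97, the 8 genes that fell lie between -0.64 and -0.46, and centring on reference genes instead moves every point 0.21 to the right.

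The calls were not equally firm. Over 28 other settings of scaling, filter, test and mice, Mcm3 fell in 28 and Ccne2 in all 27 that tested it. Mcm2 fell in 26, Cdk2 in 25, Cdc6 in 24 of 27, Mcm5 in 22, Ccnd3 in 20 and Mcm4 in 17. Leaving out 1 mouse ended the call of Ccnd3 (mutant 1, 2 or 3), Cdk2 (mutant 1), Mcm5 (mutant 2, 3 or 4) and Mcm4 (mutant 1, 3 or 4, or control 2, 5, 8 or 9). Without mutant 3, the mutant of lowest array median, 5 genes fell in place of 8, and without control 2, the control with the least Pdgfc, 7 fell. With Xist as a covariate the 4 that fell were Ccne2, Cdc6, Mcm2 and Mcm3. Over all genes 1258 fell as reported, 777 without mutant 3, 1038 without control 2 and 605 with Xist as a covariate.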

How the data were processed

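RNA of cerebral meninges from 4 mutant and 9 control pups was profiled by the study on the Mouse Gene 1.0 ST array of Affymetrix, 1 array per pup. The authors made the deposited intensity values from the raw data with PLIER, a probe-level summary, whose version and scaling between arrays are not given in the sources used here. The values are linear, and array medians differ, so brightness was treated as not equalised. The median did not always follow the brighter genes. Control 6 had the lowest median (44.1) and mutant 1 the highest (89.7), with mean log2 levels of the 12 reference genes of 10.91 and 10.38. In mutant 3 both were low (56.0 and 10.39). Scaling to the median raised the median SD of the listed genes over controls from 0.27 to 0.41, against 0.246 and 0.248 for all genes. No genome coordinates were used for expression, 0 value columns were left out, and the number of arrays limits the precision.

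Of 35557 probe sets, 21789 carry 1 gene symbol in the platform table, 1621 several and 12147 are not listed. Symbols were matched to RefSeq names for 21698 and 0 were changed. Each of the 19938 genes was represented by its brightest probe set (999 genes had several). Mutants and controls were compared with limma 3.58.1 in R 4.3.3 (lmFit and eBayes, two-sided) on log2(intensity + 16), with Benjamini-Hochberg adjustment over all genes. The constant 16 shrinks differences of dim genes. Exact permutation tests used all 715 splits of the mice. The scripts were tested on simulated data. Promoters were searched in Python 3.11.15 with pandas 2.3.3, and figures drawn with matplotlib 3.10.9.

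The 41 genes, the 10 lists of other cell cycle genes, the 8 marker lists and the motifs were chosen with earlier results of these data known. Named are all listed genes, up to 4 called genes of each other list by smallest adjusted p, the targeted genes, Xist and, of each marker list, up to 3 genes. The reference genes Tfrc, Gusb and Sdha, and Cdc45, Pold1, Shmt1 and Cenpm, were named after their values were seen.

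Alternatives were scaling to the array median, quantile normalization, centring on 12 reference genes, constants of 1 and 32, and a filter on the dimmest 25% or 50% of genes. Others were the mean of all probe sets of a gene, the methods' t-test, unequal variances, array weights, an intensity trend, Xist as a covariate and a replicate block. Fits were also made without each mouse in turn and without the 4 arrays of lowest median. GEO numbers the samples as biological replicates, and all pups are littermates.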

Additional observations from a re-analysis of the deposited data

Results flagged for a closer look

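Of 78 groups of mice examined, 1 for each of the 39 genes in mutants and in controls, 2 held a mouse far from the rest, and chance gives about 1 in 20. Cdk6 was at 165.5 in control 7, the lowest of the 9 controls, with the nearest at 222.3. E2f1 was at 234.9 in control 5, the highest of the 9 controls, with the nearest at 192.4. Neither gene was called with or without that control.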

How the results depend on the processing

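Of the results for the 39 listed genes under the 28 alternatives, 1029 kept their side of the threshold, and most of these were genes without a call that stayed so. A further 27 newly passed it, 33 no longer did, and none that was called changed sign. The 33 fell unevenly on the 8 genes called, from 11 for Mcm4 to 0 for Mcm3 and Ccne2. Genes without a call could change sign and were counted among the 1029. Of the 39 differences 32 were negative as deposited and 17 centred on reference genes. The count of the 39 genes that rose, 0 as reported, was 2 under quantile normalization, 4 centred on reference genes and 1 without the dimmest 50% of genes, with array weights or with an intensity trend. Over all genes the count that rose, 1710 as reported, was 2541, 4065, 1352 (of 9969 tested), 2033 and 1780 in these settings, in that order. The count of the 39 that fell, 8 as reported, was 15 under quantile normalization, 3 centred on reference genes, 5 with unequal variances and 4 with Xist as a covariate. Over all genes the count that fell, 1258 as reported, was 3769, 760, 400 and 605 in these settings, in that order. With the replicate block 3 of the 39 fell, and 545 of all genes. The replicate numbers did not pair the mice (correlations of -0.34, 0.16, 0.31 and -0.09), and controls 5 to 9 share no number with a mutant. Leaving out 1 mouse gave 5 to 8 of the 39 that fell, fewest without mutant 3, and 0 that rose. Over all genes 777 (without mutant 3) to 1490 (without mutant 4) fell. Pdgfra was no longer called when control 2 or any of mutants 1 to 3 was left out (adjusted p = 0.0504 to 0.132 in limma) and in 6 other settings, and Pdgfc was not in 4 settings (0.0510 to 0.190). The median difference, -0.20, was 0.0098 centred on reference genes.

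Among the 185 other genes, the count that rose, 3 as reported, was 8 under quantile normalization or with array weights, 30 centred on reference genes, and 5 with a constant of 32, without the dimmest 25% of genes or without the 4 arrays of lowest median. Over all genes 1817, 1760 (of 14953 tested) and 1777 rose in these last settings, in that order. The count of the 185 that fell, 8 as reported, was 44 under quantile normalization, 4 centred on reference genes, 2 with unequal variances, 15 with array weights, and 1 with Xist as a covariate or the replicate block. Over all genes 2023 fell with array weights, and the counts for the other settings are given above. Leaving out 1 mouse gave 2 to 5 of the 185 that rose (5 without mutant 3) and 2 to 10 that fell: 2 without mutant 1, 4 without mutant 3 and 5 without control 5, 8 or 9. Over all genes 778, 777, 1016, 988 and 1040 fell without these mice, in that order. Across scalings the share of all calls that rose was 57.6% as deposited, 45.7% scaled to the array median, 40.3% with quantile normalization and 84.2% centred on reference genes. The causes of these shifts were not tested. All listed genes averaged over 16 in both groups, and a miss of the threshold does not show equal levels.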
